A study of Mus musculus with 8 samples.

Results

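The cells described here are the 302 cells, of 53080 in all, that the authors of a mouse colon single-cell study placed in their T cell class and gave the subtype name IELs, for intraepithelial lymphocytes. They were taken by these 2 names alone. The T cell class held 5809 cells, of which 375 were named doublets and left out, and the other 8 named subtypes (Activated, Inactive, Memory, Proliferative, Tregs, ILC1-NK, ILC2 and ILC3) came to 5132 cells. All cells came from the distal colonic mucosa of 8-week-old mice with a floxed Spry2 gene, and transcripts were read at their 3′ ends after capture in droplets. The 4 KO-labelled mice (mice 2, 3, 6 and 7) also carried Villin-Cre, which is active in intestinal epithelium, and the 4 WT-labelled mice (mice 1, 4, 5 and 8) were littermates without Cre. Cre is thus driven in epithelial cells, not in lymphocytes. The design asks how loss of Sprouty2, which restrains signals from receptor tyrosine kinases, in the epithelium relates to the transcripts of colonic cells.

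Intraepithelial lymphocytes live between the epithelial cells of the gut. They are known for the integrin CD103 (Itgae), which binds E-cadherin on epithelium, for CD8 alpha homodimers, for granzymes and for killing stressed or infected epithelial cells. A T cell recognises its target through a receptor made of either an alpha and a beta chain or a gamma and a delta chain, and both kinds of cell occur among intraepithelial lymphocytes. Gut tissue also holds lymphocytes that make interleukin 17, a cytokine that acts on epithelium and draws neutrophils.

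The transcripts of the 302 cells went against their name in part. Of the markers of the name, Cd8a and Gzma were near 0, while Itgae and Gzmb were present but lower than in some other subtypes. Cd163l1, Blk, Zbtb16 and Trdc, the gene of the delta receptor chain, led the genes with a higher mean here than in every other subtype. Il17a, in the eleventh place, was also among them. Trdc by itself does not go against the name, as cells with a gamma and a delta chain occur among intraepithelial lymphocytes. The 302 cells are therefore called the IEL-named cells, and no other type is assigned to them.

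Before the results, several features of the libraries bear on them. The mice contributed 12, 23, 15, 25, 23, 27, 140 and 37 IEL-named cells (mice 1 to 8), so that 46.4% came from mouse 7. The cells held 501 to 7725 UMIs (molecular tags, of which each stands for 1 captured transcript), with a median of 2365.5, or 2826 without mouse 7, whose median was 1976. Their sums ranged from 28803 UMIs in mouse 1 to 283169 in mouse 7. Of their barcodes 3 also occurred in another mouse, and none was shared between IEL-named cells of 2 mice. In the authors' clustering 301 of the 302 lay in cluster 17, which also held 402 cells named Tregs and 159 named Inactive. Spry2 in epithelial cells did not separate the labels: it was 10.4, 13.3, 15.7 and 49.3 CPM (the count scaled to a common library total) in the KO-labelled and 11.2, 17.6, 27.7 and 37.6 CPM in the WT-labelled mice. The files do not show which stretch of Spry2 the 3′ tags read, so this does not check the deletion, and the groups are named by their labels. The IEL-named cells themselves held 6 Spry2 UMIs in 4 cells.

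Of the 4 marker genes of intraepithelial lymphocytes, Cd8a and Gzma were nearly missing in the IEL-named cells. Cd8a (chr6:71373427-71379173, mm10), which encodes the CD8 alpha chain, had 3 UMIs in 2 of 302 cells, both from mouse 7, which is 0.662% of cells (exact Clopper-Pearson 95% interval 0.0803 to 2.37%). Mature B cells, which should lack it, had a Cd8a UMI in 0.117% of cells at a median of 1893 UMIs. In the cells named Activated the share was 20.9%, at a median of 2728 UMIs. When each cell was thinned to 1000 UMIs, leaving out 21 shallower IEL-named cells (19 from KO-labelled and 2 from WT-labelled mice), the Cd8a shares were 0 of 281 IEL-named cells and 12.2% of Activated cells. Gzma (chr13:113093825-113100981), a granzyme, had 3 UMIs in 1 cell of mouse 7, against 4.08% of Activated cells and 0.0468% of mature B cells. The CD8 beta gene Cd8b1 was seen in 3 cells and the CD4 coreceptor gene Cd4 in 7.

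Itgae and Gzmb were present at moderate levels. For Itgae (chr11:73090583-73147446) the IEL-named cells held 104, 105, 82.0, 106, 89.8, 0, 138 and 115 CPM in mice 1 to 8, a mean of 92.3 ± 40.8 CPM (SD, n = 8). Mouse 6 had no UMI and the other 7 mice lay close together. The mean was 163 ± 52.6 CPM in Activated and 124 ± 93.1 CPM in Inactive cells, which placed the IEL-named cells in the third rank of 9 subtypes. They lay below the Activated cells in 7 of 8 mice, and within the spread of the Inactive cells. After thinning an Itgae UMI was found in 10.3% of IEL-named, 12.3% of Activated and 9.71% of Inactive cells. Gzmb (chr14:56258838-56262260) was at 0, 78.5, 20.5, 106, 38.5, 68.2, 152 and 68.8 CPM in mice 1 to 8. Its mean of 66.5 ± 48.3 CPM was below the 427 ± 378 CPM of ILC2, the 257 ± 90.0 CPM of ILC1-NK and the 143 ± 67.0 CPM of Tregs. Summed over the 4 markers the IEL-named cells had 162 CPM, Activated cells 1237 CPM and ILC1-NK cells 482 CPM. Gzma was the largest part of the Activated sum and was uneven there, from 1.66 CPM in mouse 7 to 1850 CPM in mouse 2. The sums in the other subtypes were not computed, so the sum does not rank the IEL-named cells among the 9 subtypes. The subtypes were named on the same cells, so no test was made between them.

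**Figure D1:**
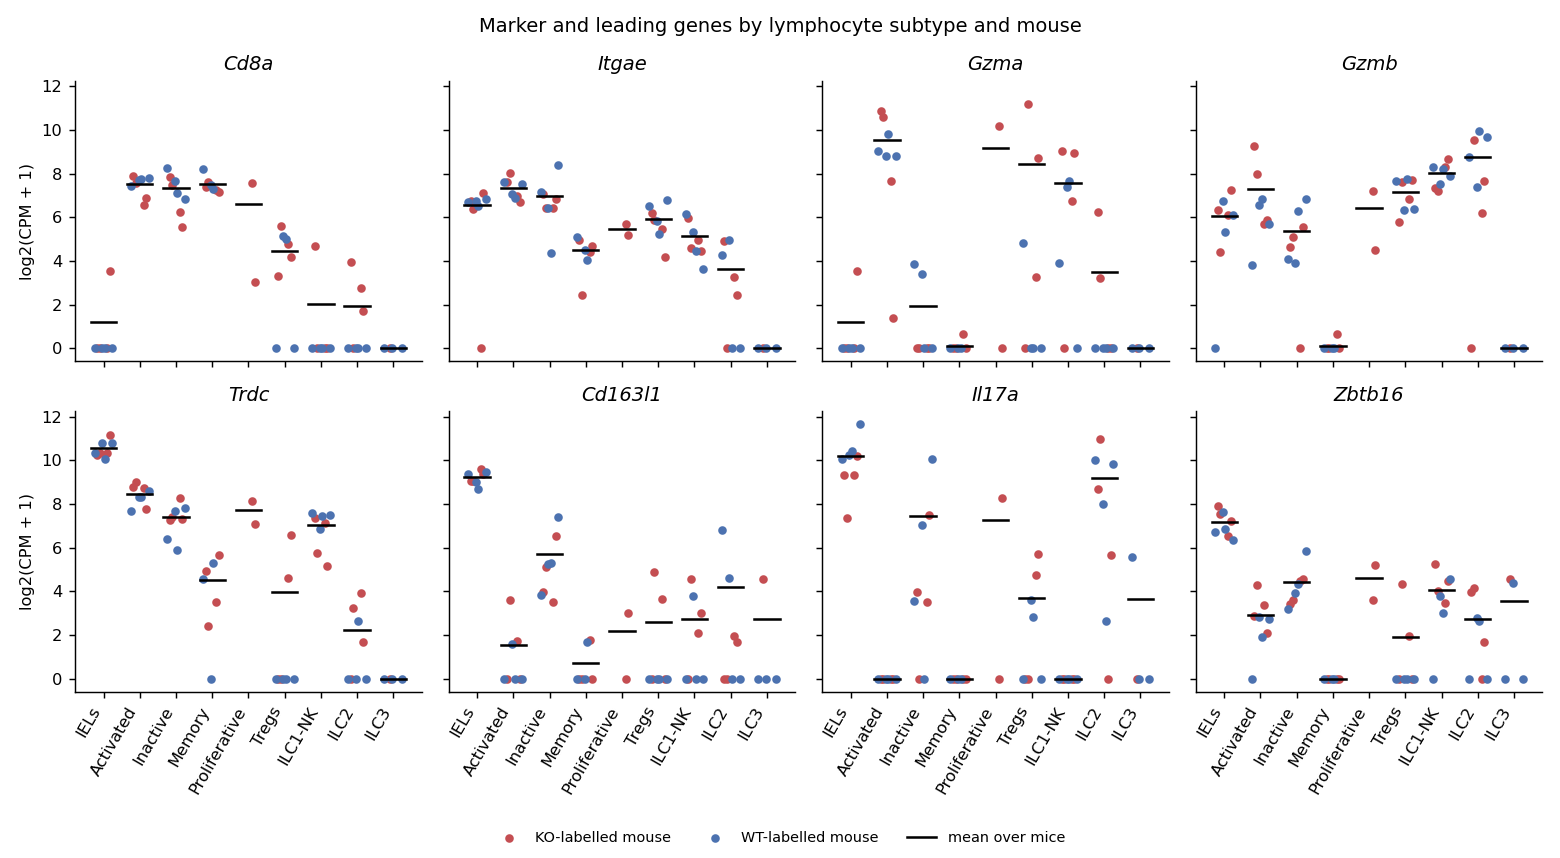
Levels of the 4 intraepithelial lymphocyte markers (top) and of 4 leading genes (bottom) by subtype, as log2(CPM + 1). Each point is 1 mouse with at least 10 cells of the subtype (KO-labelled red, WT-labelled blue) and the bar marks the arithmetic mean CPM over mice; in the IEL-named cells Cd8a and Gzma were above 0 in mouse 7 alone, while Trdc and Cd163l1 lay above every other subtype.

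The IEL-named cells were T cells by their CD3 genes. Cd3e, part of the signalling complex of the T cell receptor, had a UMI in 55.6% of them, against 66.4% of Activated and 12.6% of ILC1-NK cells. Cd3g stood at 1385 ± 359 CPM, second to the Activated cells. What set them apart among the receptor genes was the delta chain. Trdc (chr14:54142851-54148868), the delta constant gene, reached 1285, 1191, 1271, 1772, 1078, 1308, 2271 and 1789 CPM in mice 1 to 8. It was higher in the IEL-named cells than in any other subtype compared in 8 of 8 mice, with a mean of 1495 ± 407 CPM against 353 ± 109 CPM in Activated cells, the next highest. Here and below, a gene was called highest in a mouse among the subtypes of which that mouse had at least 10 cells. ILC3 was thus compared in 4 mice, Memory in 7 and Proliferative in 2. A Trdc UMI was found in 66.9% of IEL-named, 26.9% of Activated, 16.7% of ILC1-NK and 0.156% of mature B cells, and after thinning in 58.7%, 18.0%, 9.09% and 0.0914%.

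The gamma constant genes were less even. Tcrg-C1 (chr13:19214103-19217024) was at 208, 353, 246, 516, 539, 500, 717 and 711 CPM in mice 1 to 8, and its mean of 474 ± 192 CPM was the highest of the 9 subtypes, ahead of 209 ± 84.5 CPM in ILC3. Tcrg-C2 at 236 ± 85.2 CPM did not differ beyond the spread from the 234 ± 65.0 CPM of Activated cells. Tcrg-C4 at 182 ± 69.5 CPM lay below the 271 ± 67.5 CPM of Activated cells. Some of the gamma constant genes are near copies of each other. How reads shared between such copies were assigned is not given in the sources used here, so the split between them is uncertain. Trac (chr14:54220521-54224206), the alpha constant gene, was at 175 ± 92.9 CPM, in the sixth rank, against 922 ± 122 CPM in Tregs.

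Variable gene segments are seldom reached by reads from the 3′ end, and few were seen. Among the delta variable genes Trdv4 was detected, in 57 cells, at 116 ± 47.0 CPM against 35.5 ± 37.4 CPM in Inactive cells, and it was highest in the IEL-named cells in 8 of 8 mice. The 5 other delta variable genes looked up had no UMI in these cells. Of the gamma variable genes Trgv2 was seen in 24 cells, Tcrg-V6 in 12 and Tcrg-V4 in 10, and Tcrg-V7 in none. The delta variable genes were added to the lists after values were seen.

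Sorted by constant genes, 195 of the 302 cells (64.6%) held delta or gamma but not Trac UMIs, 56 held both, 20 held Trac alone and 31 held neither. The median depth was 2260 UMIs in the first set and 3134 UMIs in the cells with both. Other subtypes held delta or gamma constant UMIs as well, in 69.5% of Activated, 58.4% of ILC2, 57.7% of Proliferative and 56.1% of ILC1-NK cells against 83.1% of IEL-named cells (47.4, 28.6, 33.8, 30.2 and 73.7% after thinning), so such a UMI was not particular to the IEL-named cells. Cells with Trdc differed from those without in other genes. Cd163l1 was found in 150 of 202 cells with Trdc (74.3%) and 8 of 100 without, and in 93 of 165 and 15 of 116 after thinning, and the share was higher in the cells with Trdc in 8 of 8 mice both ways. Il17a was found in 113 of 202 and 20 of 100, or in 78 of 165 and 26 of 116 after thinning, with the higher share in the cells with Trdc in 5 of 8 mice before and 6 of 8 after thinning. Trac went the other way, at 33 of 202 and 43 of 100, or at 17 of 165 and 20 of 116 after thinning. Its share was higher in the cells with Trdc in 0 of 8 mice before and 3 of 8 after thinning. Blk was higher with Trdc in 8 of 8 mice before and 7 of 8 after thinning. Zbtb16 turned with thinning, from 50 of 202 and 37 of 100 to 23 of 165 and 12 of 116 (higher with Trdc in 1 of 8 and 5 of 8 mice). The groups of cells differed in depth, with medians of 2238.5 UMIs with and 2845 UMIs without Trdc before thinning.

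The 20 leading genes were those with the highest ratio of mean CPM to the highest of the other 8 subtypes, with 10 CPM added to both, among the 1681 genes with a UMI in at least 20% of the IEL-named cells. Of these 1681 genes 216 were highest in the IEL-named cells, and 11 by 2-fold or more. The authors' subtypes were named on the same cells, so these genes describe the named set and carry no test. With mouse 7 left out of the means 19 of the 20 were still among the 20, in a partly different order, a check chosen after seeing the data. The limit of a UMI in at least 20% of cells still counted the cells of mouse 7, so the check was not wholly free of it. Of the 20 genes 10 were highest in the IEL-named cells in each of the 8 mice. The last of the 20 was Capg, a capping protein of actin, at a log2 ratio of 0.69, and the next genes below were Becn1 at 0.65 and Dap at 0.63.

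Promoters of the leading genes were read for the motif AGGTCA, a core that the nuclear receptor encoded by Rora binds, because Rora was detected in 237 of the IEL-named cells. The 250 bases before the RefSeq start were searched on both strands (AGGTCA or TGACCT). Of the 20 genes 13 had an entry, and the motif was found in Il17a, Actn2 and Capg, in 3 of the 16 windows of these genes, while 14.02% of all 32851 windows of that length held it. The 2 windows below are those of Cd163l1, the gene with the highest ratio, and of Il17a, with the match in capitals.
Il17a, GRCm38.p6 chr1:20730655-20730904, plus strand: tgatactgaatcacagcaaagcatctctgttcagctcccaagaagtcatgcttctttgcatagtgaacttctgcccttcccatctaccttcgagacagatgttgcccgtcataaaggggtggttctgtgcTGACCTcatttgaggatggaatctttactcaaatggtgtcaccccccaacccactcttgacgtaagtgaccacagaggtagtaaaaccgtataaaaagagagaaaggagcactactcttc
Cd163l1, GRCm38.p6 chr7:140218017-140218266, plus strand: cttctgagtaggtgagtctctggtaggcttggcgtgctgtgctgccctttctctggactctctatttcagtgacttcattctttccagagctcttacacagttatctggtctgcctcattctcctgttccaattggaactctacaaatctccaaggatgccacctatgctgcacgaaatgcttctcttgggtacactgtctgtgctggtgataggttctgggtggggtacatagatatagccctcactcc
The match in Il17a starts 120 bases before the gene start, and none was found in the Cd163l1 window. A match is a description of the letters and not a measured binding site.

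Cd163l1 (chr7:140218267-140231145), a receptor of the scavenger receptor cysteine-rich family, led the list with a log2 ratio of 3.32. Its level in the IEL-named cells was 660, 537, 533, 516, 410, 773, 664 and 699 CPM in mice 1 to 8. The mean of 599 ± 119 CPM compared with 50.8 ± 53.7 CPM in Inactive cells and 1.93 ± 3.81 CPM in Activated cells, and no mouse overlapped. A UMI was found in 52.3% of IEL-named cells, 0.994% of the other named cells and 0.0234% of mature B cells. A second gene of this family, 5830411N06Rik, was at 143 ± 73.6 CPM against 10.98 ± 16.9 CPM in Inactive cells and was highest here in 8 of 8 mice.

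Blk (chr14:63372836-63417037), a kinase of the Src family, had the second ratio, 2.56. It was at 174, 314, 123, 291, 282, 125, 293 and 310 CPM in mice 1 to 8, with a mean of 239 ± 83.5 CPM against 32.1 ± 38.1 CPM in Inactive cells, and it had no UMI in 1177 Activated cells, which allows a share of up to 0.255%. Mature B cells express Blk too, with a UMI in 26.2% of cells, and of the 10 B and plasma cell markers 9 were detected in the IEL-named cells and Ms4a1 was at 0. Their part in the Blk level was not tested. Zbtb16 (chr9:48654297-48836222) encodes PLZF, a transcription factor of innate-like T cells. Its levels of 104, 236, 184, 198, 115, 91.0, 148 and 80.3 CPM were above every other subtype with at least 10 cells in the mouse. The mean was 145 ± 56.4 CPM and the log2 ratio 2.20.

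Il17a (chr1:20730905-20734496), the gene of interleukin 17A, was high but uneven. Its level was 1076, 641, 164, 1203, 1360, 637, 1180 and 3210 CPM in mice 1 to 8, a mean of 1184 ± 909 CPM. Mouse 8 was the highest and mouse 3 the lowest. The next subtype was ILC2 at 586 ± 708 CPM, so the means lay within the spread between mice, although the IEL-named cells were the highest in 7 of 8 mice. A UMI was found in 44.0% of IEL-named cells, 6.36% of ILC2, 0.0312% of mature B cells and 0 of 1177 Activated cells.

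**Figure D2:**
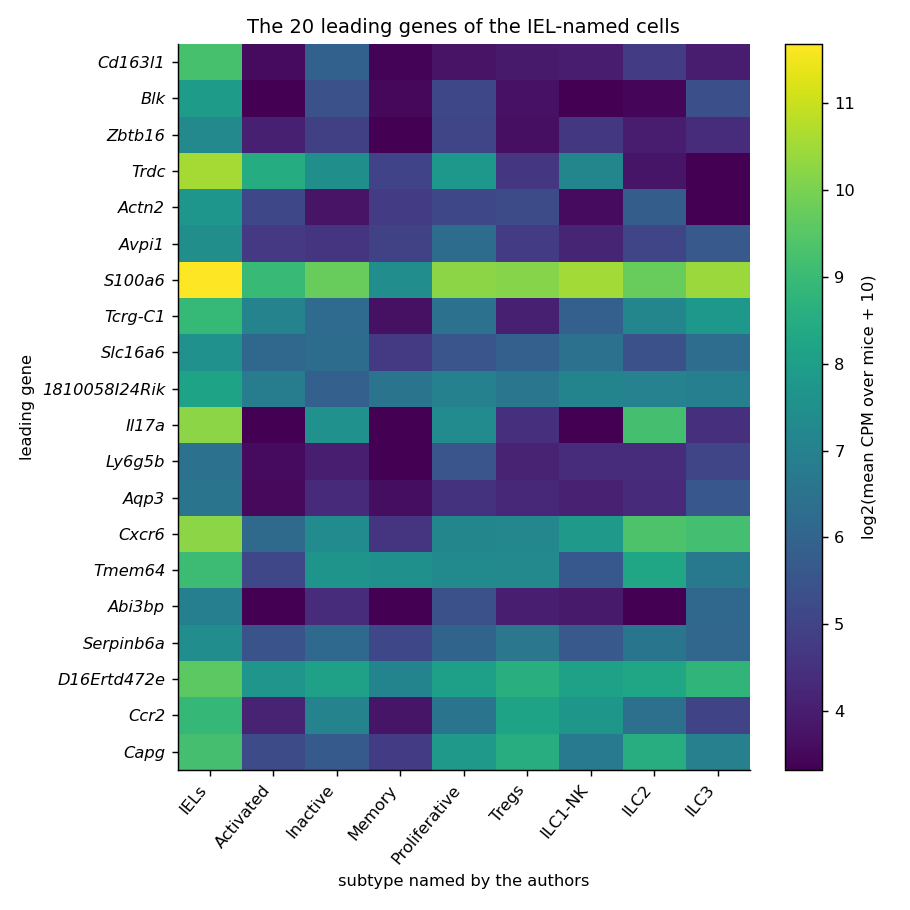
Mean level over mice of the 20 leading genes (rows) in the 9 named subtypes (columns), as log2(mean CPM + 10). The first column is the brightest in each row by construction; Cd163l1, Blk and Zbtb16 had the highest ratios to the next subtype (log2 3.32, 2.56 and 2.20), while Il17a was also bright in ILC2 and Cxcr6 in ILC2 and ILC3.

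The other leading genes included chemokine receptors, which steer lymphocytes into tissue. Cxcr6 ranged from 770 to 1524 CPM (median 1240) and was highest here in 8 of 8 mice, with a mean of 1198 ± 241 CPM against 637 ± 110 CPM in ILC2. Ccr2 ranged from 308 to 641 CPM, with a mean of 468 ± 125 CPM against 279 ± 77.1 CPM in Tregs. Actn2, an actin cross-linker, had a log2 ratio of 1.92, and the water and glycerol channel gene Aqp3 one of 0.96. S100a6, a calcium-binding protein, was at 3283 ± 885 CPM against 1458 ± 504 CPM in ILC1-NK, and it also had a UMI in 42.2% of mature B cells.

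Genes of the interleukin 17 programme were collected in a list of 24 after the leading genes had been seen, so the list is no independent evidence. In the IEL-named cells 20 of the 24 had a UMI in at least 10% of cells and 12 were highest among the 9 subtypes, among them Ramp1, a receptor subunit for the neuropeptide CGRP, at 736 ± 187 CPM. Summed over the list the IEL-named cells ranged from 8814 to 13232 CPM over the 8 mice, and the sums of means were 440 CPM in Activated and 2511 CPM in ILC1-NK cells. The cytokine receptors of the programme were second to ILC3. Il1r1 was at 111 ± 60.2 CPM against 220 ± 56.8 CPM in ILC3, and Il23r at 57.9 ± 30.9 CPM against 60.7 ± 41.9 CPM, the latter within the spread between mice. Maf, a transcription factor, stood at 595 ± 157 CPM, below the 898 ± 223 CPM of Tregs. Il22, the interleukin 22 gene, separated the IEL-named cells from ILC3: it was in 4 of the 302 cells and at 100 ± 205 CPM, against 3028 ± 1758 CPM. ILC3 means rest on 4 mice, Memory on 7 and Proliferative on 2, as a mouse needed at least 10 cells of the subtype.

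Genes of cell killing were low. Of 14 cytotoxic genes none was highest in the IEL-named cells. Nkg7, a granule protein, was at 122 ± 78.9 CPM against 1097 ± 235 CPM in ILC1-NK, and Prf1, the pore-forming perforin, was seen in 4 cells. Fasl, a death ligand, was at 54.5 ± 13.2 CPM, in the third rank. Of 23 innate receptor genes none was highest here, and 6 (Klrb1a, Klre1, Klra1, Klra3, Klra5 and Klra8) had no UMI. Klrk1, the NKG2D receptor gene, was the most widely detected of them, at 283 ± 152 CPM against 902 ± 157 CPM in ILC1-NK. The adaptor Tyrobp was seen in 1 cell.

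The 10 genes with the lowest ratio to the mean of the other subtypes, among genes with a UMI in at least 20% of those cells, were Ccl5, Fcer1g, Klrd1, Gm2682, Ccr7, Xcl1, Cd7, Gm8369, Slamf6 and Gramd3. Ccl5, a chemokine of memory and cytotoxic lymphocytes, had the lowest: it ranged from 0 to 45.5 CPM over the 8 mice (median 12.3), against a mean of 8415 ± 2434 CPM in Activated and 4543 ± 1258 CPM in ILC1-NK cells. Klrd1, a receptor chain of killer cells, was at 7.10 ± 12.2 CPM against 881 ± 180 CPM in ILC1-NK. Ccr7, which guides cells to lymph nodes, was at 11.2 ± 24.0 CPM against 649 ± 91.6 CPM in Memory cells. Gm2682 had no UMI in the IEL-named cells.

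Genes of residence and migration were mixed. Of 24 listed genes 5 were highest here: Itgb7, Itgal, Ccr2, Cxcr6 and Jaml. Itgb7, the beta chain that pairs with the CD103 alpha chain, was the most even, from 449 to 552 CPM over the 8 mice, and its mean of 502 ± 34.4 CPM was above the 414 ± 43.2 CPM of ILC2 in 8 of 8 mice. Itga4, another partner of that beta chain, was the lowest of the 9 subtypes at 68.2 ± 39.3 CPM. Jaml, a junction adhesion receptor, was at 228 ± 87.6 CPM against 153 ± 46.8 CPM in ILC1-NK. S1pr1, a receptor that guides recirculating cells out of tissue, was low and seen in 22 cells.

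Among transcription factors and surface regulators, 2 of 26 and 2 of 12 were highest in the IEL-named cells. Sox13, a factor of gamma-delta T cell development, was at 28.9 ± 15.5 CPM against 10.4 ± 19.97 CPM in Inactive cells. Foxp3, the regulatory T cell factor, was seen in 1 cell although 402 cells of the same cluster were named Tregs. Ikzf2 at 191 ± 94.4 CPM was far below the 1247 ± 185 CPM of Activated cells. Gata3 was at 86.6 ± 24.98 CPM against 826 ± 163 CPM in ILC2. Pdcd1, the inhibitory receptor PD-1, stood at 315 ± 135 CPM and did not differ beyond the spread from ILC3. The costimulator Icos, at 961 ± 165 CPM, was likewise within the spread of the 912 ± 238 CPM in Tregs. The cycle genes Mki67 and Top2a were seen in 5 and 12 cells.

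None of 17 genes for cytokine receptors and their signalling was highest in the IEL-named cells. Il7r, which lets lymphocytes respond to the survival factor interleukin 7, was second at 1387 ± 462 CPM, against 2327 ± 905 CPM in ILC3. Il18r1, a receptor chain for interleukin 18, was second too, at 419 ± 131 CPM. Of 19 cytokines and chemokines 3 were highest here: Il17a, Tnf and Tgfb1. Tnf was at 72.6 ± 39.5 CPM against 39.5 ± 21.5 CPM in Inactive cells, and Ifng, the interferon gamma gene, had 1 UMI. Areg, an epidermal growth factor receptor ligand linked to epithelial repair, ranged from 20.5 to 1112 CPM over the 8 mice (median 66.8), with mouse 8 the highest, and its mean of 242 ± 370 CPM was below the 1302 ± 512 CPM of ILC2. Of 12 interferon response genes Rsad2 alone was highest here, from 8 UMIs in 2 cells.

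Markers of other cell types differed in level. The 6 ILC3 markers, which include Il17a and were all detected, summed to 389 to 1490 CPM in the KO-labelled and 1250 to 3658 CPM in the WT-labelled mice, and their sum of means was 1558 CPM against 8.63 CPM in Activated cells. Il17a alone had a mean of 1184 CPM in the IEL-named cells and 11.8 CPM in ILC3. Il22 and Il1r1 were lower here than in ILC3, as given above. The 4 regulatory T cell markers, all detected, summed to 489 to 746 CPM and 385 to 688 CPM, with a sum of means of 561 CPM against 1304 CPM in Activated cells. Ikzf2 made up most of the sum in Activated cells. The sums in ILC3 and in Tregs were not computed, so these sums do not show likeness to those subtypes. The 6 ILC2 markers came to 196 CPM or below and the 5 of naive T cells to 382 CPM or below. The 10 epithelial markers, all detected, summed to 193 to 838 CPM in the KO-labelled and 308 to 1044 CPM in the WT-labelled mice, and their sum of means, 535 CPM, was near the 507 CPM of Activated cells. The 10 B and plasma cell markers, of which Ms4a1 was at 0, summed to 222 to 625 CPM and 149 to 1193 CPM, with the highest value in mouse 5. Stromal markers stayed at 104 CPM or below with Lum and Cdh5 at 0, and myeloid and mast cell markers at 34.4 CPM or below with 6 of 10 at 0. The 5 NK and ILC1 markers summed to at most 45.9 CPM, with Eomes, Klre1 and Klra8 at 0, against 1110 CPM in ILC1-NK cells. The share that such RNA had in any result was not tested.

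The IEL-named share did not separate the genotypes. It was 0.317, 0.203, 0.440 and 2.57% of all cells in KO-labelled mice 2, 3, 6 and 7, and 0.174, 0.248, 0.350 and 1.12% in WT-labelled mice 1, 4, 5 and 8. Mice 7 and 8 stood above the other 6, and the groups overlapped. The means were 0.882 ± 1.13% and 0.473 ± 0.438% (SD, n = 4 each; two-sided exact permutation test, p = 0.60, adjusted p = 0.771 over 9 subtypes). The smallest p that 4 mice against 4 allow is 0.0286. Without mouse 7 the direction turned, to 0.320% against 0.473% (exact permutation p = 0.857).

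The denominator also set the direction. Of the T cell class the shares were 4.93, 2.73, 1.80 and 14.5% in the KO-labelled and 1.56, 3.08, 4.45 and 16.4% in the WT-labelled mice, with means of 5.99 ± 5.82% and 6.36 ± 6.77% (exact permutation p = 0.857). Of non-epithelial cells they were 1.27 ± 1.405% and 1.64 ± 2.36% (exact permutation p = 0.886). Mouse 8 had 715 non-epithelial cells of 3302 and mouse 6 had 4775 of 6141, so the mix of recovered cells differed between mice. Within mice 1 to 4 the KO-labelled minus WT-labelled difference was 0.0491 percentage points and within mice 5 to 8 it was 0.768 points, where 2 mice against 2 cannot give an exact permutation p below 0.333.

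**Figure D3:**
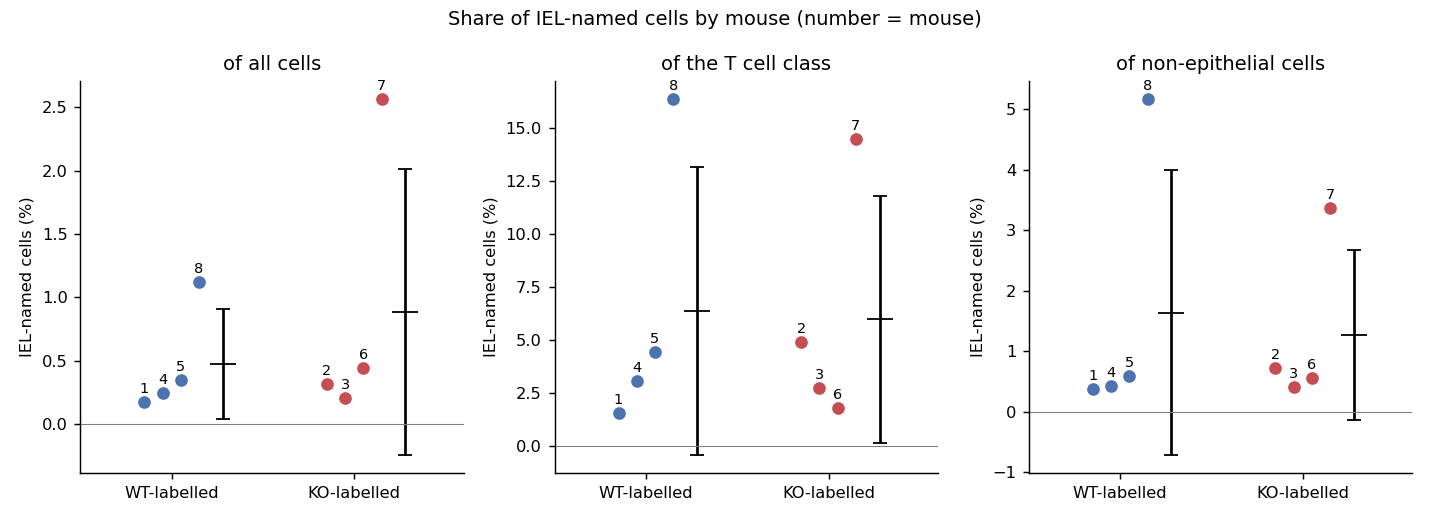
Share of IEL-named cells in each mouse, of all cells, of the T cell class and of non-epithelial cells, in percent. Points are mice with their number, horizontal ticks are group means and bars are 1 SD (n = 4); mice 7 and 8 stood above the other 6 in all 3 panels, 1 in each group.

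The receptor makeup did not separate the genotypes either. With each cell thinned to 1000 UMIs, a delta or gamma constant UMI was found in 65.2, 66.7, 69.2 and 74.6% of the IEL-named cells in KO-labelled mice 2, 3, 6 and 7. In WT-labelled mice 1, 4, 5 and 8 it was found in 72.7, 79.2, 65.2 and 83.8%. The groups overlapped, with means of 68.9 ± 4.12% and 75.2 ± 8.07% (n = 4 each; two-sided exact permutation test, p = 0.257). Without thinning the means were 82.3 ± 3.63% and 85.7 ± 8.00% (exact permutation p = 0.457). The thinned share of cells with Il17a was 34.8, 13.3, 26.9 and 41.8% in the KO-labelled and 36.4, 33.3, 26.1 and 48.6% in the WT-labelled mice.

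**Figure D4:**
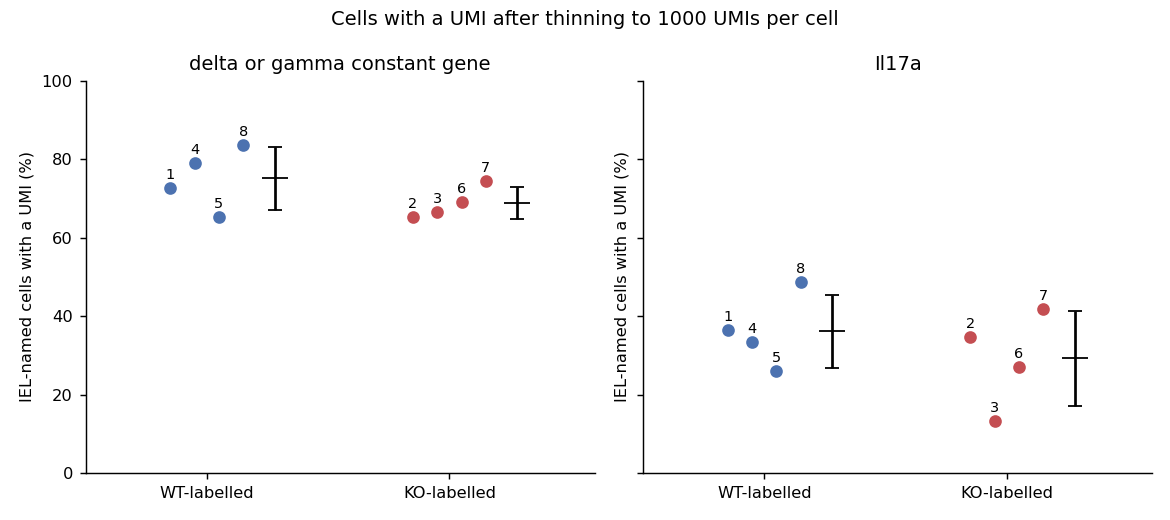
Share of IEL-named cells with a UMI of a delta or gamma constant gene (left) and of Il17a (right) in each mouse after thinning to 1000 UMIs per cell, in percent. Points are mice with their number, ticks are group means and bars are 1 SD (n = 4); the groups overlapped in both panels.

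No gene of the IEL-named cells passed the test between genotypes. UMIs were summed per mouse, and edgeR's quasi-likelihood test with Benjamini-Hochberg adjustment called 0 of 1238 genes at 0.05 (0%), with 56 genes at an unadjusted p below 0.05 and a smallest adjusted p of 0.9998. DESeq2 called 0 of 12038 genes (0%), with 63 at an unadjusted p below 0.05. Groups did not overlap in 36 of the 1238 genes (2.91%). In simulated counts of this size the same test called 52% of the genes given a 2-fold change and 77% of those given a 4-fold change. There 100 genes had each change in the same draw, and all genes shared 1 spread between mice. With so many changed genes the adjustment is less strict, so these shares do not give the power to find a few changed genes. As mouse 7 gave 283169 of the 765924 UMIs and mouse 1 gave 28803, the precision differed between mice.

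The 6 genes with the smallest p in each direction are given as values. Il17a was the interleukin among them: it stood at 641, 164, 637 and 1180 CPM in KO-labelled mice 2, 3, 6 and 7 and at 1076, 1203, 1360 and 3210 CPM in WT-labelled mice 1, 4, 5 and 8. Mouse 7 lay above mouse 1, so the groups overlapped. The log2 difference was -1.31 ± 0.40 (SE; edgeR adjusted p = 0.9998), -0.85 without mouse 8 and -1.78 without mouse 7. It was called in 1 of 15 alternatives, the fit with no filter on low counts (log2 difference -1.24, edgeR adjusted p = 0.0023), and in the other 14 its adjusted p was 0.735 or above.

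Without that filter 5 of 12039 genes were called, the others being Cxcl10, H2-Ab1, H2-Eb1 and Cd74, which were chosen for mention by that result. DESeq2, which was also run without that filter, called 0 of 12038 genes. Cxcl10, an interferon-induced chemokine, held 97 UMIs in the KO-labelled and 8 in the WT-labelled mice, at 26.2, 471, 546 and 84.8 CPM in KO-labelled mice 2, 3, 6 and 7 and 0, 26.4, 38.5 and 34.4 CPM in WT-labelled mice 1, 4, 5 and 8. The groups overlapped, and mice 3 and 6 were high. H2-Ab1, H2-Eb1 and Cd74 serve antigen presentation by MHC class II, which B cells and other presenting cells carry. H2-Eb1 had 1 UMI in the KO-labelled and 25 in the WT-labelled mice, of which mouse 5 was at 282 CPM, mouse 1 at 104 CPM and mice 4 and 8 at 0. Cd74 was likewise highest in mouse 5, at 641 CPM, the mouse with the highest sum of B and plasma cell markers, whose part in this was not tested.

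Sik1 (chr17:31844250-31855804), a salt-inducible kinase, had the smallest p among genes higher in KO-labelled mice. It stood at 196, 205, 227 and 170 CPM in mice 2, 3, 6 and 7 and at 104, 92.5, 77.0 and 103 CPM in mice 1, 4, 5 and 8. The groups did not overlap, and the log2 difference was 1.05 ± 0.29 (SE; edgeR adjusted p = 0.9998). Atp2b1 (chr10:98914406-99026143), a calcium pump of the plasma membrane, was at 1034, 779, 989 and 911 CPM against 590, 674, 641 and 562 CPM, also without overlap. Pxdc1, Cap1, Tmbim6 and Rtraf were the other 4, with log2 differences of 0.67 to 1.00. In the other direction Cox6c, a subunit of cytochrome c oxidase, was at 419, 328, 409 and 321 CPM against 486, 542, 577 and 654 CPM. Adss, an enzyme of purine synthesis, had a log2 difference of -1.15 ± 0.38, and Higd1a, Gadd45b and Rgs10 ones of -0.54 to -0.81. Rtraf, Cox6c, Adss, Higd1a, Gadd45b and Rgs10 did not overlap between groups either. These genes were chosen by small p, so the lack of overlap is no further support, and none passed adjustment.

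**Figure D5:**
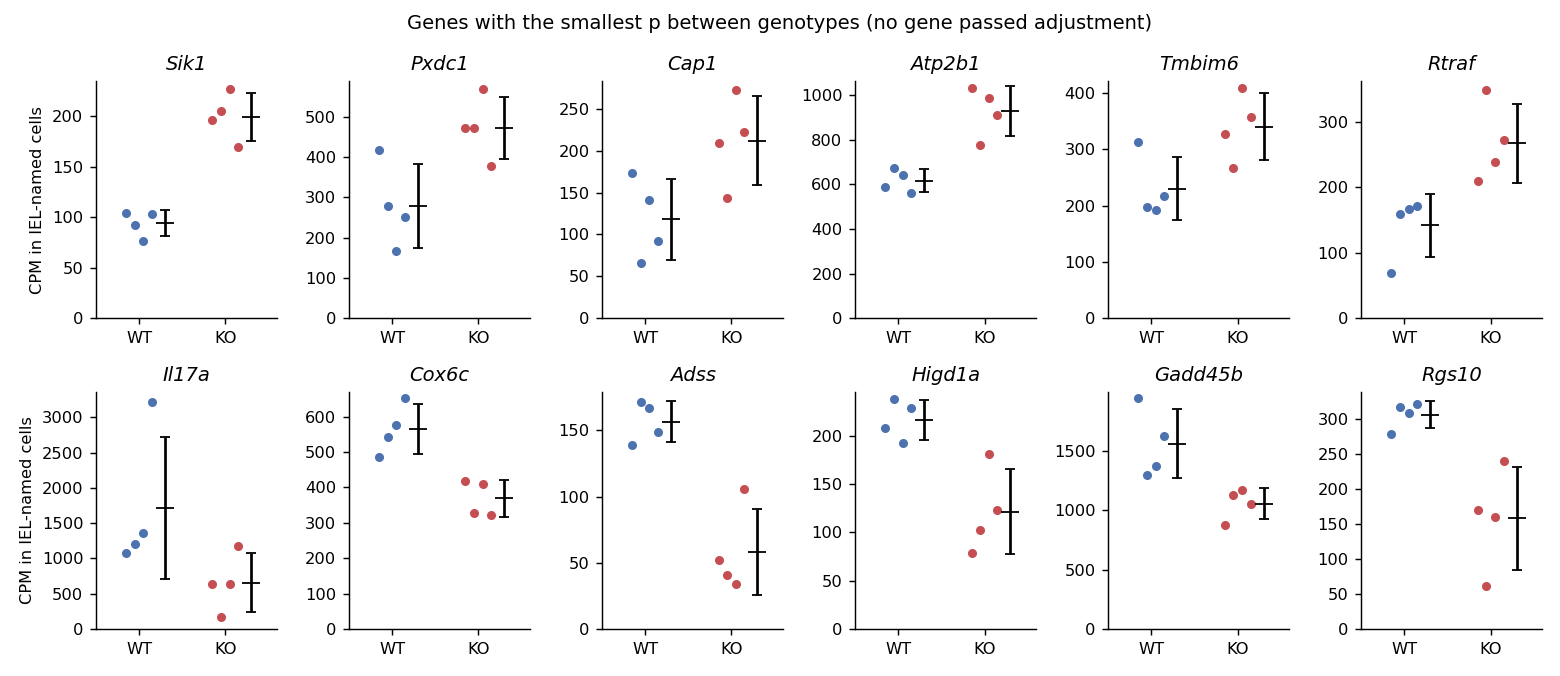
Level in the IEL-named cells, in CPM on a linear axis from 0, of the 6 genes with the smallest p in each direction (top, higher in KO-labelled; bottom, lower). Points are mice (4 WT-labelled blue, 4 KO-labelled red), ticks are means and bars are 1 SD. Il17a, Pxdc1, Cap1 and Tmbim6 overlapped between groups and the other genes did not. The genes were chosen by small p, and no gene passed adjustment.

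Besides Il17a, whose values are given above, 4 of the leading genes with the highest ratios were compared. Trdc differed by 0.05 ± 0.23 on the log2 scale (SE), Cd163l1 by 0.17 ± 0.22, Blk by -0.26 ± 0.31 and Zbtb16 by 0.32 ± 0.38, none past the test (edgeR adjusted p = 0.9998 each). Of the 11 receptor and CD3 genes 3 were higher and 8 lower in KO-labelled mice, with a median log2 difference of -0.11, against 0.01 over all 1238 genes tested. Of the 16 tested genes of the interleukin 17 list 12 were higher and 4 lower, with a median of 0.21. Of 14 immediate early and stress genes 8 were higher and 6 lower, with a median of 0.04. No member of any list was called. Of 16 feedback genes of the MAPK pathway, which Sprouty proteins inhibit, 2 had enough counts to be tested: Dusp5, an ERK phosphatase, differed by -0.35 ± 0.26 and Fosl2, an AP-1 subunit, by 0.18 ± 0.30.

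Nor was any gene's genotype difference in the IEL-named cells told apart from that in the other named lymphocytes of the same mice. In 1 edgeR model with the mouse as a block, 0 of 5648 genes had an interaction past 0.05 (0%), with 224 at an unadjusted p below 0.05. The genes with the smallest p rested on few UMIs. Myo6 and Itga1 each had 13 UMIs in the IEL-named cells of KO-labelled mice and 0 in WT-labelled mice. Bak1 had 19 and 1, Zeb2 41 and 10, Letm2 8 and 17, Mtch1 27 and 29. Nr4a1, an immediate early gene of receptor signalling, had 292 and 105 UMIs, with a log2 difference between the effects of 1.00 ± 0.30 (SE; edgeR adjusted p = 1). With 1 mouse left out, H2-Eb1 was called without mouse 4 or without mouse 8 (edgeR adjusted p = 0.043 and 0.028), and Il22 without mouse 5 (edgeR adjusted p = 0.0033). The Il22 UMIs lay in 4 IEL-named cells, 54 of them in the KO-labelled and 15 in the WT-labelled mice, and all 15 were from mouse 5.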

How the data were processed

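Single-cell transcripts of the distal colonic mucosa of 8 mice were measured. Per the labels' protocols, tissue was digested, dead cells were removed with annexin V beads and 10x Chromium 3′ libraries were made in 1 batch on 1 day. Cell Ranger 3.0.2 and build mm10 come from the submitters' processing notes. How cells were filtered, clustered and named is not given in the sources used here. Raw UMI counts fill the deposited matrix, of 31053 genes in 53080 cells. The deposited size factor of each cell is a ratio of its total to the geometric mean of the totals, made by the authors; UMAP coordinates are a deposited score and were not used for results. Table and matrix list cells in different orders: 16 size factors matched the matrix in file order and all 53080 after sorting by mouse and barcode (tolerance 1e-06). Of the gene symbols 71 were duplicated, so genes were followed by Ensembl identifier.

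Counts were summed per mouse over the IEL-named cells (at least 10 cells per mouse) and tested with edgeR 4.0.16 (R 4.3.3), by its quasi-likelihood F test after TMM scaling and filterByExpr; DESeq2 1.42.0 was the alternative. All 8 mice entered, and CPM are these sums scaled to a common library total, without TMM. The mouse was the replicate, and shares were compared by exact permutation over 70 assignments. In simulated counts of the 1238 tested genes, drawn with 1 common spread between mice, 0.48% of unchanged genes were called. Genes named are members of listed gene groups, the 6 with the smallest p in each direction between genotypes and the 5 for the interaction, the 20 leading and the 10 lowest genes. The cells and lists were chosen with earlier results of these data known. Each mouse was left out in turn, and other scalings, filters, depth limits and denominators were tried. Intervals are exact Clopper-Pearson at 95%, a count of 0 allows 3 counts of the total, and both cover counting error only. Gene positions are from GENCODE M21 and promoters from RefSeq (GRCm38.p6). Python 3.11.15 with numpy, scipy, pandas and matplotlib served for the rest. A few genes of the lists are not reported here.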

Additional observations from a re-analysis of the deposited data

Results flagged for a closer look

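In groups of 4 mice, a value was singled out when its gap to the nearest other mouse took up more of the group's range than Dixon's 95% critical value. Of 80 groups looked at 11 were singled out. The critical value is set for about 1 in 20 in independent groups of normally distributed values. These groups share mice and denominators, so the count cannot be judged against that rate. Mouse 7 stood above the other KO-labelled mice in the IEL-named share of all cells (2.57%) and of non-epithelial cells (3.37%). It also stood above them in Cd8a (10.6 CPM, where the other 3 had none), Gzma (10.6 CPM, likewise), Trdc (2271 CPM) and Ly6g5b (155 CPM). The Cd8a and Gzma values are 3 UMIs each in a sum of 283169 UMIs. The sums of mice 2, 3 and 6 were 76408, 48784 and 87947 UMIs, so both values lie near the floor of detection in those mice. Mouse 8 stood above the other WT-labelled mice in the share of non-epithelial cells (5.17%) and in Il17a (3210 CPM). Mouse 1, with 12 IEL-named cells, was the lowest WT-labelled mouse for Avpi1 (104 CPM) and Rtraf (69.4 CPM). Mouse 3 was the lowest KO-labelled mouse for S100a6 (2152 CPM).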

How the results depend on the processing

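No paired analysis was possible because the labels number the mice from 1 to 8 and the genotypes share no number. The share of IEL-named cells differed by 0.408 percentage points (KO-labelled minus WT-labelled); with a mouse left out it ranged from -0.153 (without mouse 7) to 0.635. It was -0.379 over the T cell class and -0.373 over non-epithelial cells, and no alternative came below 0.05. The thinned delta or gamma constant share differed by -6.30 points and kept its direction in 11 of 11 alternatives, from -9.63 to -3.44 with a mouse left out, none past 0.05. The count of genes called between genotypes was 0 with any mouse left out and 5 with no filter on low counts; the cause was not tested. The interaction count was 0 and became 1 with no filter, and 0 to 1 with a mouse left out. The 12 named genes kept their direction in 171 of 171 alternative values. They were chosen by their small p in these same mice, so a kept direction is no independent support. The log2 ratios of Cd163l1, Blk, Zbtb16, Trdc and Il17a were 3.44, 2.55, 2.37, 1.87 and 0.83 without mouse 7. Depth limits these results: mouse 1 gave 12 cells and 28803 UMIs and 1238 genes could be tested.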
